A study of Mus musculus with 16 samples.

Results

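The comparison set 4 samples of alveolar epithelial type II (AT2) cells from Fgf10+/- mouse pups against 4 from wild-type pups, all 3 days old and kept in normoxia. It used 8 of the 16 samples of the study by their genotype and oxygen labels, and each gene was represented by its brightest feature, judged by the mean of the 16 samples. AT2 cells are the alveolar cells that make surfactant. The other 8 samples were AT2 cells of 3-day-old pups kept in 85% oxygen from birth (hyperoxia), 6 of them wild type and 2 Fgf10+/-, and they enter here as part of the shared estimate of spread and in a last comparison. Fgf10+/- is the genotype as labelled, and the series title speaks of a knock-down. The sources used here name neither the allele nor the strain, nor how the AT2 cells were purified. The labels do not say that the samples of a group came from separate animals, so p-values measure only the spread between these samples, which may be technical.

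FGF10 is a secreted growth factor of the lung mesenchyme that signals to neighbouring epithelium through the receptor FGFR2b. Receptor activation drives the MAP kinase pathway, whose usual read-outs are the ETS factors Etv4 and Etv5 and the feedback inhibitors of the Sprouty and Dusp families. In the developing and injured lung this signal is known for supporting epithelial progenitors and the AT2 state. AT2 cells are known as receivers of the signal rather than its source.

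RNA was labelled with Cy3 and hybridised to single-colour Agilent arrays, and the values are the log2 intensities deposited by the authors, of which the median was 4.34. Correlations between normoxia arrays were 0.947 to 0.968 within a genotype and 0.940 to 0.971 between genotypes. The first and second principal components of the 8 arrays held 24% and 20% of the variance, and neither separated the genotypes. Fgf10+/- replicate 1 stood apart on the second, at 73 against -26.7 to 10.6 for the other 7 arrays. Fgf10+/- replicates 2 (10.6) and 4 (3.1) also lay above the wild-type range there (-26.7 to -6.1), and replicate 3 (-22) lay within it. The AT2 gene for surfactant protein C (Sftpc) was at 15.97 to 15.98, the top of the scale, in all 8 samples. The club cell gene Scgb1a1 also stood near the top in both groups, so these values do not show how pure the AT2 cells were. Wild-type replicate 1 stood apart in mesenchymal markers, with a mean of 8.18 over 13 smooth muscle and pericyte genes against 5.84 to 6.24 in the other 3 wild-type samples, and of 10.32 against 8.12 to 8.54 over 16 fibroblast genes. The 10 thymocyte markers averaged 4.75, 4.62, 4.47 and 6.43 in wild type and 5.74, 6.38, 4.25 and 5.54 in Fgf10+/-, so high and low libraries occurred in both groups. In such bulk samples, fewer cells of a type and less RNA per cell cannot be told apart.

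Of the 20725 genes tested, 2 passed the threshold of an adjusted p under 0.05, which is 0.00965% of the genes, and 8 (0.0386%) had an adjusted p under 0.1. Both rose in Fgf10+/-: Oasl2, an interferon-induced antiviral gene, 3.01-fold, and Lrg1, a secreted acute phase glycoprotein, 6.00-fold. No gene fell by limma with Benjamini-Hochberg adjustment. At an unadjusted p under 0.05 there were 1250 genes (6.03%), of which 546 (2.63%) were higher and 704 (3.40%) lower. The 4 and 4 values did not overlap for 295 genes that were higher in Fgf10+/- (1.42% of those tested) and for 423 that were lower (2.04%). The median log2 difference over all genes was -0.01, and 47.9% of genes had a positive one. The number of calls depended on single libraries. It was 0 without Fgf10+/- replicate 1, 3 or 4 or without wild-type replicate 1, 2 or 4, it was 3 without wild-type replicate 3, and it was 9 without Fgf10+/- replicate 2. Fitted on the 8 normoxia samples only, no gene passed, with a limma adjusted p of 0.382 for both Oasl2 and Lrg1. None passed with the replicate number as a block (limma adjusted p = 0.0766 for Oasl2 and 0.0994 for Lrg1). Nor did any with the macrophage, the mast cell and basophil or the endothelial mean as a covariate, fits chosen after the values were seen. In normoxia the last 2 means did not overlap between genotypes, and the macrophage means overlapped only through wild-type replicate 3. Such a covariate makes the genotype difference of any gene less precise, so these fits cannot decide whether the 2 calls hold.

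Oasl2 encodes a 2'-5'-oligoadenylate synthetase-like protein that limits virus replication. Its log2 intensity was 6.72, 6.62, 7.26 and 6.65 in the wild-type samples and 8.60, 7.90, 8.64 and 8.47 in the Fgf10+/- samples. Every Fgf10+/- value lay above every wild-type value, with wild-type replicate 3 the nearest from below and Fgf10+/- replicate 2 the nearest from above. The log2 difference was 1.59 (SE 0.22, adjusted p = 0.0421 by limma and the Benjamini-Hochberg method). It lay between 1.51 and 1.76 when any single normoxia library was left out, and 2 of these 8 fits kept it past the threshold.

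Lrg1, leucine-rich alpha-2-glycoprotein 1, is a secreted protein known to modify TGF-beta signalling. It had values of 7.03, 8.23, 7.47 and 7.57 in wild type and of 10.53, 9.01, 10.31 and 10.79 in Fgf10+/-. The groups did not overlap, and Fgf10+/- replicate 2 was again the lowest of its group. The log2 difference was 2.59 (SE 0.38, adjusted p = 0.0421 by limma and the Benjamini-Hochberg method), with a range of 2.38 to 2.97 when single libraries were left out and 1 of the 8 fits past the threshold.

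A further 6 genes had the smallest p-values among higher genes of at least 1.5-fold without overlap, and none of the 6 passed the threshold. Timp1, a tissue inhibitor of metalloproteinases, was at 7.93, 7.84, 7.35 and 7.06 in wild type and at 9.29, 9.54, 9.34 and 10.83 in Fgf10+/-, a log2 difference of 2.20 (SE 0.37, limma adjusted p = 0.0952). Slpi, the secretory leukocyte protease inhibitor, was at 9.19, 10.86, 10.06 and 10.13 against 11.54, 11.76, 12.17 and 13.22 (log2 difference 2.11, SE 0.37). In both protease inhibitor genes Fgf10+/- replicate 4 was the highest of the 8 samples. Oas1a, which makes the 2'-5'-oligoadenylates that activate ribonuclease L, had 5.63, 6.22, 6.88 and 6.68 in wild type and 7.83, 7.52, 8.75 and 8.83 in Fgf10+/- (log2 difference 1.88, SE 0.33). Apol9a, an apolipoprotein L gene known to respond to interferon, had 4.88, 5.18, 5.73 and 5.52 against 6.96, 6.27, 7.38 and 7.06 (log2 difference 1.59, SE 0.27). Its near-identical neighbour Apol9b had a log2 difference of 1.79, and the arrays may not separate these 2 genes. A second Apol9a feature had a difference of 0.49, and the mean of both features one of 1.04. H2-Q8, a class Ib MHC gene with close paralogs, was at 5.76, 6.19, 5.43 and 5.28 against 7.33, 6.39, 7.80 and 7.52 (log2 difference 1.60, SE 0.28). Slpi, Oas1a, Apol9a and H2-Q8 shared the adjusted p of 0.0952 by limma. Il4i1, a secreted amino acid oxidase of immune cells, ranged from 4.06 to 5.68 in wild type and from 6.28 to 7.20 in Fgf10+/- (log2 difference 1.89, limma adjusted p = 0.108).

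**Figure D1:**
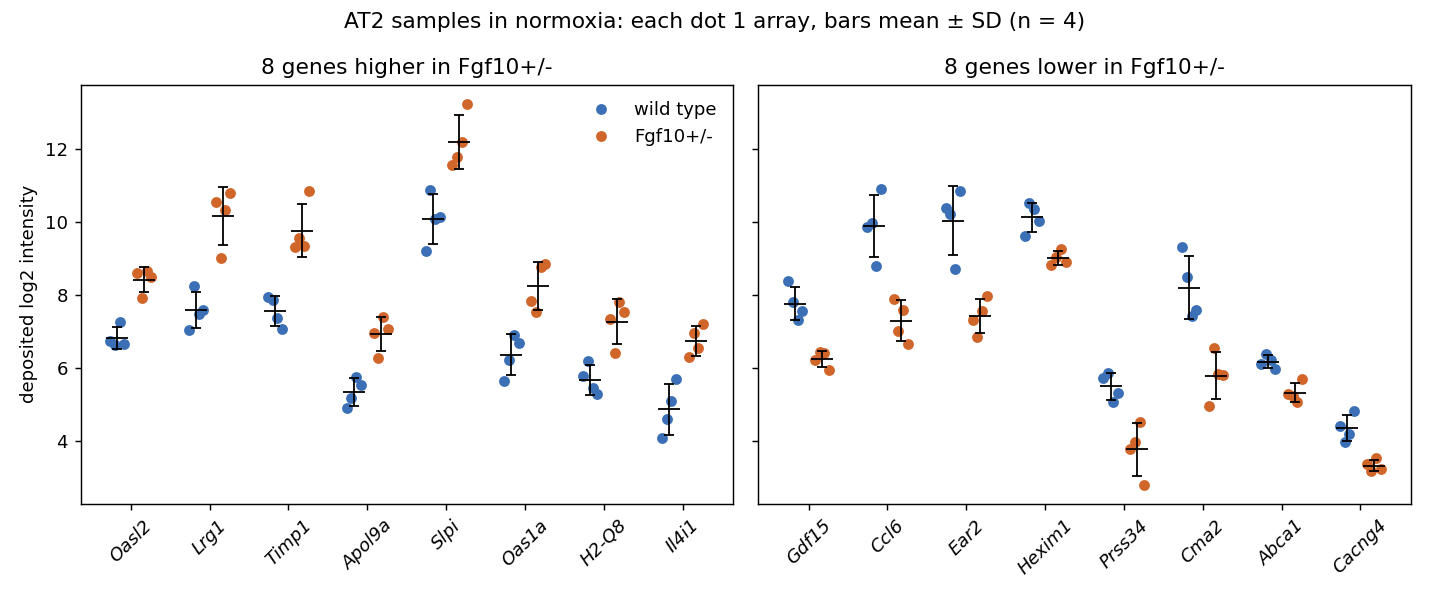
Deposited log2 intensity (vertical axis) of the 8 higher and 8 lower genes with the smallest p-values among non-overlapping genes of at least 1.5-fold, for each normoxia array. Dots are arrays, blue for wild type and orange for Fgf10+/-, and bars are mean ± SD (n = 4). The absence of overlap was a condition of the choice, and only Oasl2 and Lrg1 passed the limma threshold.

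Of the higher genes above, 4 were picked by name and not by a rule. The promoters of these 4 are shown, with 2 interferon-type elements searched in the 250 bases before the start of each gene. They are the RefSeq sequences of GRCm38.p6 on the gene's strand, 5' to 3', with matches in capitals: Oasl2 at chr5:114896684-114896933 (+), Lrg1 at chr17:56121947-56122196 (-), Oas1a at chr5:120907526-120907775 (-) and Apol9a at chr15:77411081-77411330 (-, the first of 2 entries).
Oasl2: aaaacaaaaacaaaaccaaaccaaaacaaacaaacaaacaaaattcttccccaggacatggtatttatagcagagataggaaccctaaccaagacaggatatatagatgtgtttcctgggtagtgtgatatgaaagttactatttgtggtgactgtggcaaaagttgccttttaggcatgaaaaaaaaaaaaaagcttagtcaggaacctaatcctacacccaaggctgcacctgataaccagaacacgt
Lrg1: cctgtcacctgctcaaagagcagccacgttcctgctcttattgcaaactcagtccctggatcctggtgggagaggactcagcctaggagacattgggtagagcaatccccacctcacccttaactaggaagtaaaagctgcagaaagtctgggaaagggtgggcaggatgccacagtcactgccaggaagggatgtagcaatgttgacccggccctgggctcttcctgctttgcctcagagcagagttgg
Oas1a: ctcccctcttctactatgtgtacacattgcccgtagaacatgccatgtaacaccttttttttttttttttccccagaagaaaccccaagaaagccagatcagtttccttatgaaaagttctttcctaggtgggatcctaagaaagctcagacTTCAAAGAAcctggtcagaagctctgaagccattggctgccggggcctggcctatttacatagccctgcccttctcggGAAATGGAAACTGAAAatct
Apol9a: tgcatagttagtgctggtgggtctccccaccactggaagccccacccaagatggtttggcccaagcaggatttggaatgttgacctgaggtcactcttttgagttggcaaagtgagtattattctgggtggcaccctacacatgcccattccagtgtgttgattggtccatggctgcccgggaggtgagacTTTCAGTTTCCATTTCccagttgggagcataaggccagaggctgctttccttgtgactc

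The core of the interferon-stimulated response element (ISRE), read as GAAA, any 2 bases and GAAA, was sought on both strands and stood in 567 of 16404 measured genes with a promoter entry (3.46%). Oas1a held overlapping matches at 20 to 11 and 14 to 5 bases before its start, and Apol9a held overlapping matches on the opposite strand at 59 to 50 and 53 to 44 bases. The STAT-type letters TTCNNNGAA, with N for any base, which read the same on both strands, stood in 1265 promoters (7.71%), and Oas1a held a match at 98 to 90 bases. For Oasl2 and Lrg1, the genes past the threshold, neither set of letters was in this window. Of the interferon list below, 13 of 25 genes with an entry held the ISRE core (52%), and 5 held TTCNNNGAA (20%). The 13 genes with the core had a median log2 difference of 0.53, with 4 non-overlapping, and the 12 without it a median of 0.40, also with 4. Of all genes 1.42% did not overlap on the higher side.

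Interferon response genes tended to be higher in the Fgf10+/- samples. Of 34 measured members 31 had a positive log2 difference, the median was 0.52, and the list mean was 6.23 to 6.31 in the 4 wild-type samples and 6.72 to 6.92 in the 4 Fgf10+/- samples. Only Oasl2 passed the threshold, and 12 members had an unadjusted p under 0.05 with a positive difference (2.63% of all genes). The values of 10 did not overlap, all higher, beside 1.42% of all genes. The median stayed between 0.48 and 0.57 when any single library was left out. Isg15, a ubiquitin-like protein that is attached to other proteins after interferon, was at 9.16, 8.27, 9.16 and 9.10 in wild type and at 10.01, 9.99, 9.96 and 9.84 in Fgf10+/- (log2 difference 1.03, limma adjusted p = 0.814). Its 4 Fgf10+/- values were close together (SD 0.07) and lay above a wild-type group that was wider because of replicate 2. Ifit3, which restrains viral RNA, had 4.92, 6.28, 6.25 and 5.61 against 7.24, 6.42, 7.64 and 7.07 (log2 difference 1.33, limma adjusted p = 0.349), so that Fgf10+/- replicate 2 lay just above the wild-type range. Irf9, the DNA-binding subunit of the interferon-activated factor ISGF3, had a log2 difference of 0.66 (limma adjusted p = 0.519), again without overlap. The other non-overlapping members were Oas1a, Oasl1 (0.94), Zbp1 (0.96), Xaf1 (0.82), Ifit1 (0.69) and Mx1 (0.66). Members with differences near or below 0 included Irf1 (-0.21), the GTPase gene Irgm1 (-0.24), Ifit2 (0.00) and Oas3 (0.02). The second features of Xaf1 (-0.67) and Cxcl10 (-0.80) went against their chosen features (0.82 and 0.55).

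Within the oligoadenylate synthetase family of 12 genes, a list written after the values were seen, 9 were positive. The values of 5 did not overlap, all higher (Oasl2, Oas1a, Oasl1, Oas1f and Oas1c), beside 1.42% of all genes. Oasl2 and Oas1a had already been chosen above for not overlapping. The family median was 0.45, or 1.59 when genes with a mean under 6, 9 of the 12, were left out, and members ran from -0.17 for Oas1g to 1.88 for Oas1a. Oas1b was at 10.09 ± 0.18 in wild type and 9.95 ± 0.20 in Fgf10+/- (SD, n = 4), a log2 difference of -0.13. The Oas1 genes are near-identical copies, so the assignment of their features is uncertain, and a second Oas1a feature had a difference of 0.53, which made the mean of both 1.20. Among 17 interferon-inducible GTPases, also listed afterwards, 13 were positive with a median of 0.35. Tgtp2, which helps to destroy the vacuoles of intracellular parasites, was at 8.36, 7.94, 7.67 and 8.19 in wild type and at 9.86, 8.96, 9.71 and 9.71 in Fgf10+/- (log2 difference 1.52, limma adjusted p = 0.178). Its second feature had a difference of -0.08, and the mean of both was 0.72. Its paralog Tgtp1, a dim feature, had a difference of -1.09 with overlapping groups, and the pair may share signal.

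Acute phase and mucosal defence genes had the largest positive median of the lists here, 1.07 over 22 members, of which 17 were positive, 9 had an unadjusted p under 0.05 with a positive difference (2.63% of all genes) and 2 with a negative one (3.40%). Lrg1 rose, and Slpi, Cfb and Lcn2 were the other 3 members without overlap on the higher side (1.42% of all genes). Cfb, complement factor B, was at 7.74, 10.22, 9.60 and 9.56 in wild type and at 10.57, 10.39, 11.39 and 12.10 in Fgf10+/- (log2 difference 1.83, limma adjusted p = 0.482). Lcn2, lipocalin 2, which withholds iron from bacteria, had 10.15, 11.53, 11.64 and 11.03 against 12.72, 11.79, 13.34 and 12.94 (log2 difference 1.61, limma adjusted p = 0.519). In both genes Fgf10+/- replicate 2 lay close to the wild-type maximum. The serum amyloid genes had the widest values: Saa3 was at 6.58, 11.30, 9.65 and 10.04 in wild type and at 10.97, 10.91, 12.76 and 13.56 in Fgf10+/- (log2 difference 2.66, limma adjusted p = 0.603). These groups overlapped, since wild-type replicate 2 exceeded Fgf10+/- replicates 1 and 2, and without wild-type replicate 1 the difference was 1.72. Saa1 had a difference of 2.39 with overlap (limma adjusted p = 0.371), and Saa2, a close paralog, 0.30.

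The size of the acute phase difference rested in part on wild-type replicate 1. The mean of these genes was 7.25 in that library, from 8.23 to 8.43 in the other wild-type samples and from 8.43 to 9.49 in Fgf10+/-, and without it the list median was 0.68. Members at the other end were Chil3 (-1.14), a chitinase-like protein of macrophages, and Fga (-0.94), fibrinogen alpha, which did not overlap on the lower side. C3, the central complement component, was at 14.40 ± 0.56 in wild type and 14.93 ± 0.28 in Fgf10+/- (SD, n = 4), and all of its 10 further features lay between 0.57 and 0.70. Markers of club and secretory airway cells, which also make several of these proteins, moved with them: 10 of 11 were positive, the median was 0.79 (0.48 without wild-type replicate 1), and the list mean was 9.20 to 11.31 in wild type and 10.65 to 11.81 in Fgf10+/-. None of the 11 passed the threshold or was free of overlap, and 1 had an unadjusted p under 0.05 with a positive difference (2.63% of all genes). Reg3g was a member of both lists. Scgb1a1, the defining club cell secretoglobin, was at the top of the scale in both groups (15.96 ± 0.02 and 15.94 ± 0.04), and Muc5b, an airway mucin, ranged from 8.53 to 13.82 in wild type and from 12.10 to 13.36 in Fgf10+/-. The part of airway cells in the acute phase difference was not tested.

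Antigen presentation genes had a median difference of 0.38, and 16 of 19 were positive. No member passed the threshold, 4 had a positive difference at an unadjusted p under 0.05 (2.63% of all genes), and 4 higher members did not overlap (1.42% of all genes): Tapbp, H2-Ab1, H2-Eb1 and Tap1. H2-Ab1, a chain of MHC class II, was at 9.57, 10.15, 9.92 and 10.26 in wild type and at 10.52, 10.48, 10.64 and 10.71 in Fgf10+/- (log2 difference 0.61, limma adjusted p = 0.603). Tapbp, tapasin, which loads peptides onto class I, had a difference of 0.71, and H2-K1, a class I heavy chain with close paralogs, 0.69 with overlap (limma adjusted p = 0.732). Cd74, the class II invariant chain, had a difference of 0.25. The lowest member was Ctss, cathepsin S, a protease abundant in macrophages, at 8.85, 9.63, 8.08 and 9.99 in wild type and at 7.39, 7.26, 7.84 and 6.89 in Fgf10+/- (log2 difference -1.80, limma adjusted p = 0.371). Its groups did not overlap, in the opposite direction to most of the list.

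**Figure D2:**
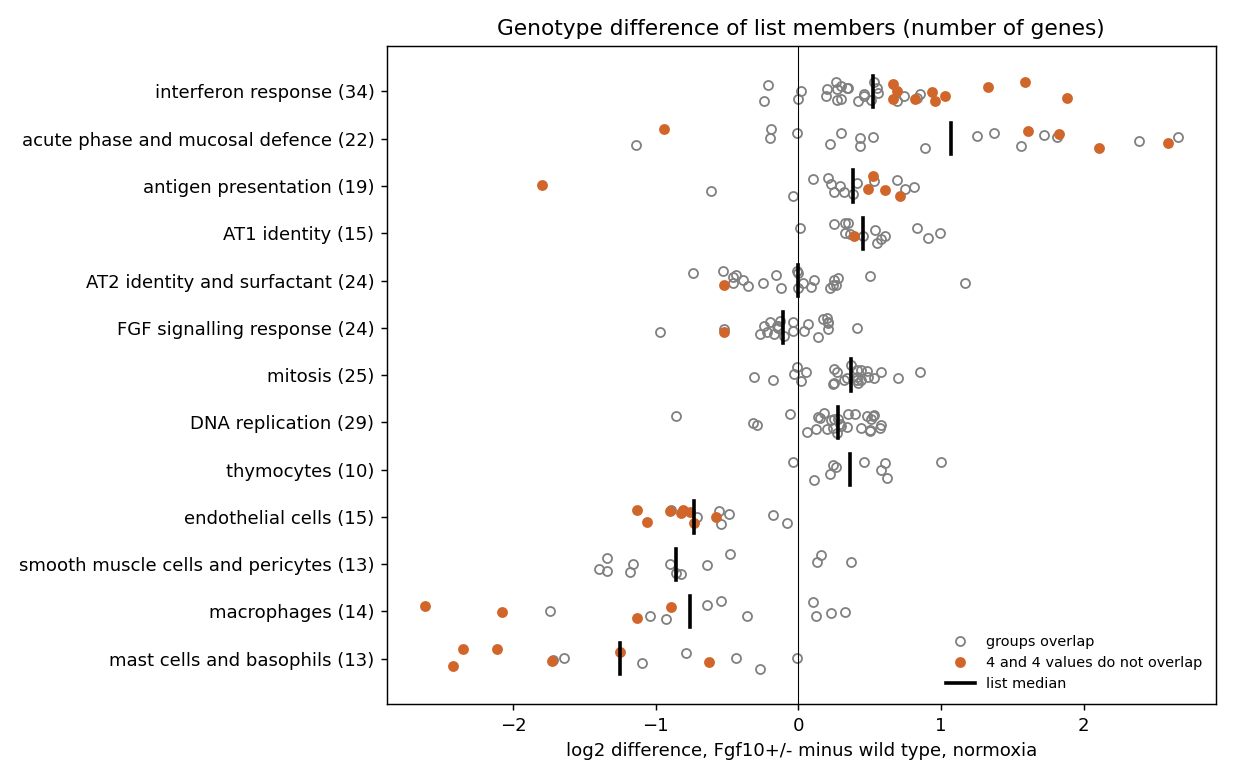
Log2 difference, Fgf10+/- minus wild type in normoxia, of each measured member of 13 gene lists. Each circle is a gene, filled where its 4 and 4 values did not overlap, and black bars mark list medians, which run from 1.07 for acute phase genes to -1.25 for mast cell and basophil genes. The mast cell and basophil list was written after the values were seen.

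On the lower side, genes of macrophages and of mast cells and basophils had the largest differences. Ear2, an eosinophil-associated ribonuclease of myeloid cells, was at 10.36, 10.21, 8.69 and 10.85 in wild type and at 7.30, 6.83, 7.56 and 7.96 in Fgf10+/-, 6.13-fold lower without overlap (log2 difference -2.62, SE 0.49, limma adjusted p = 0.108). Ccl6, a chemokine of myeloid cells, was at 9.86, 9.97, 8.79 and 10.89 against 7.89, 7.0, 7.58 and 6.65 (log2 difference -2.60, SE 0.47, limma adjusted p = 0.107). Wild-type replicate 3 was the lowest of its group in both genes and in Ctss, and was still above all Fgf10+/- samples. Marco, a scavenger receptor of alveolar macrophages, had 7.81, 7.30, 6.39 and 8.52 against 4.47, 6.10, 5.97 and 5.16 (log2 difference -2.08, limma adjusted p = 0.325).

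The macrophage list had a median of -0.76 over 14 genes, with 10 negative and 4 non-overlapping members (Ear2, Marco, Itgax and Fcgr3), beside 2.04% of all genes, and none past the threshold. With the mean of all features of each gene the median was -0.39, and without genes of a mean under 6 it was -1.44. The list mean was 5.56 to 6.70 in wild type and 5.27 to 5.77 in Fgf10+/-, so the groups overlapped through wild-type replicate 3. Members did not move as a block. Csf1r, the receptor for macrophage colony-stimulating factor, had a difference of 0.23, with 0.13 and -0.89 for its other features, and Cd68 (0.12), C1qa (-0.36) and C1qb (0.33) were close to 0 or split. A list of alveolar macrophage genes and Ear ribonucleases written after the values were seen had a median of -1.13, with 18 of 19 negative and 8 without overlap (2.04% of all genes). Ear2 had already been chosen for not overlapping, so this count is no separate support. Rnase2a, a ribonuclease with near-identical relatives in the Ear family, was at 8.55, 8.46, 6.42 and 9.04 in wild type and at 5.81 to 6.11 in Fgf10+/- (log2 difference -2.14, limma adjusted p = 0.330). With the macrophage mean as a covariate no gene passed the limma threshold. The differences were 1.42 for Oasl2 and 2.62 for Lrg1, neither of which is a macrophage marker here. This mean itself differed between most samples of the genotypes, so that fit cannot decide whether the calls hold.

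All 13 mast cell and basophil genes, likewise listed after the values were seen, had negative differences, with a median of -1.25 and 6 without overlap (2.04% of all genes). Cma2 and Prss34 had already been chosen for not overlapping, so this count is no separate support. Cma2, a mast cell chymase, was at 9.29, 8.47, 7.42 and 7.58 in wild type and at 4.95, 6.53, 5.82 and 5.80 in Fgf10+/-, 5.34-fold lower (log2 difference -2.42, SE 0.47, limma adjusted p = 0.143). Prss34, a basophil serine protease, was at 5.71, 5.86, 5.07 and 5.31 against 3.78, 3.95, 4.52 and 2.79 (log2 difference -1.73, SE 0.34, limma adjusted p = 0.141). Tpsb2, a mast cell tryptase, was at 9.62, 7.55, 6.55 and 7.13 against 4.45, 6.31, 5.38 and 5.30 (log2 difference -2.35, limma adjusted p = 0.265). In Cma2 and Tpsb2 wild-type replicate 1 was the highest sample and Fgf10+/- replicate 1 the lowest. The list mean ran from 6.10 to 7.58 in wild type and from 5.35 to 5.81 in Fgf10+/-, and the list median without wild-type replicate 1 was -1.10. Hdc, which makes histamine, was at 10.45 ± 0.32 and 10.44 ± 0.55 (SD, n = 4).

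Endothelial markers were all negative in difference, with 15 of 15 members below 0, a median of -0.73, 8 without overlap (2.04% of all genes) and none past the threshold. Cldn5, the endothelial tight junction claudin, was at 10.69, 11.24, 10.85 and 10.62 in wild type and at 10.25, 9.68, 9.68 and 9.30 in Fgf10+/- (log2 difference -1.13, SE 0.34, limma adjusted p = 0.541). Ramp2 (-0.82), Sox17 (-0.90), Tie1 (-0.81), Eng (-0.76), Plvap (-0.73), Tek (-1.06) and Emcn (-0.58) were the other members without overlap. The list mean was 7.61 to 8.10 in wild type and 6.99 to 7.38 in Fgf10+/-, and the median stayed between -0.85 and -0.61 without any single library. Smooth muscle and pericyte markers also had a negative median, -0.86, but it was -0.28 without wild-type replicate 1. Tagln, a smooth muscle actin-binding protein, was at 12.78 in that library, between 8.85 and 9.39 in the other wild-type samples and between 8.24 and 9.90 in Fgf10+/-. B cell genes had a median of -0.45 over 9 members (-0.28 without Fgf10+/- replicate 1 and -0.17 without Fgf10+/- replicate 3), with Cd79b, a subunit of the B cell receptor, at -1.19 without overlap.

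**Figure D3:**
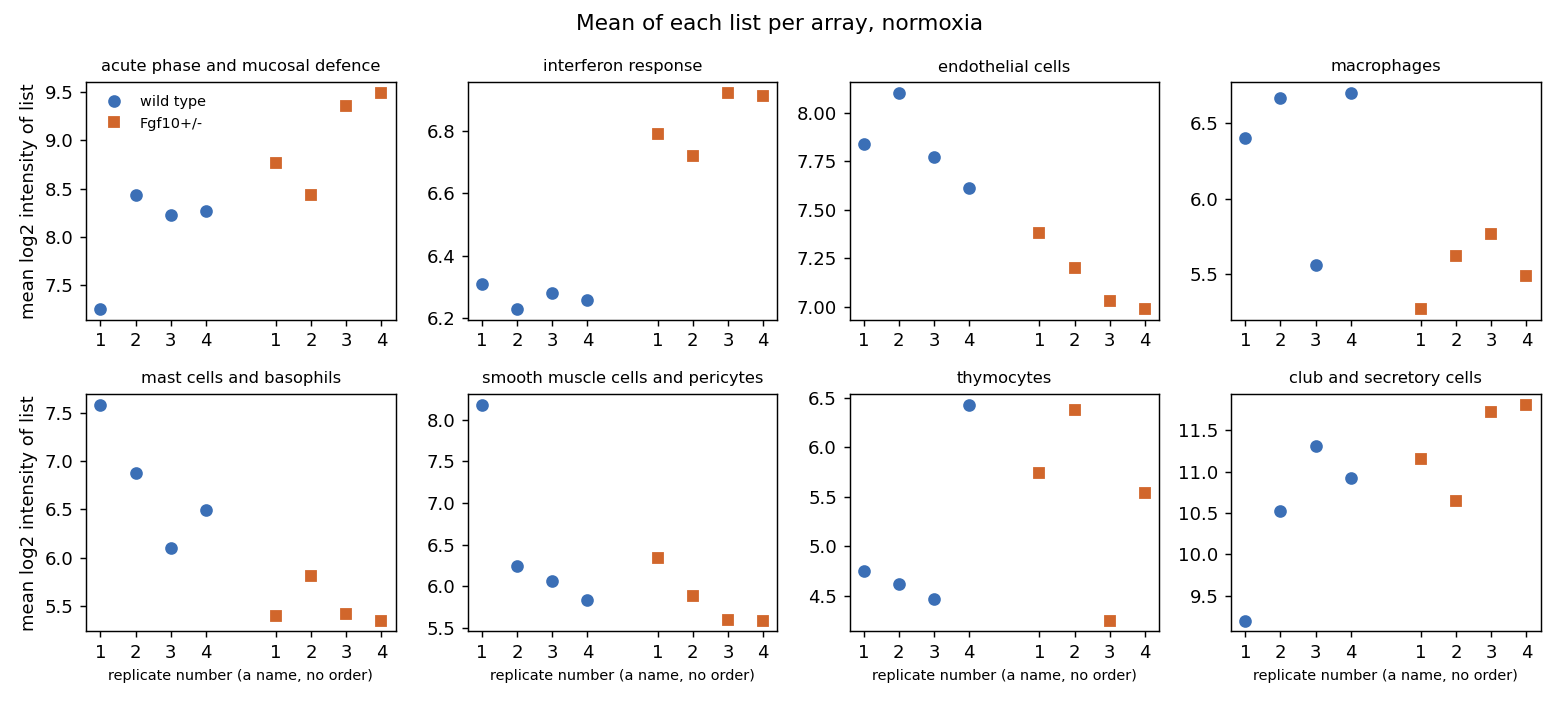
Mean log2 intensity of 8 gene lists in each normoxia array, wild type in blue circles and Fgf10+/- in orange squares, on a scale of its own per panel. The interferon and endothelial means do not overlap between genotypes. Nor do the mast cell and basophil means, but that list was written after the values were seen. Wild-type replicate 1 stands apart in the smooth muscle panel, and the thymocyte panel mixes the groups.

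The remaining lower genes with the smallest p-values were in none of these cell type lists. Gdf15, a stress-induced cytokine of the TGF-beta family and a p53 target, was at 8.36, 7.79, 7.30 and 7.55 in wild type and at 6.22, 6.42, 6.39 and 5.94 in Fgf10+/-, 2.84-fold lower without overlap (log2 difference -1.51, SE 0.27, limma adjusted p = 0.0952). Hexim1, an inhibitor of the transcription elongation factor P-TEFb, was at 9.60, 10.51, 10.34 and 10.02 against 8.82, 9.03, 9.25 and 8.88 (log2 difference -1.12, SE 0.21, limma adjusted p = 0.108). The Fgf10+/- values of both genes were tightly grouped, with an SD of 0.22 for Gdf15 and 0.19 for Hexim1. Abca1, which exports cellular cholesterol, had a difference of -0.85 and Cacng4, a calcium channel subunit with dim features, one of -1.03 (limma adjusted p = 0.227 for each). Across the 24 p53 targets the median was -0.07, 10 were positive, and Cdkn1a, the p21 gene, had a log2 difference of -0.24 with overlap.

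Fgf10 itself was dim in these epithelial samples, with 5.89, 4.27, 4.50 and 4.32 in wild type and 4.22, 4.77, 4.02 and 4.68 in Fgf10+/- (log2 difference -0.32, SE 0.32, limma adjusted p = 0.961). The groups overlapped, and wild-type replicate 1, the library high in mesenchymal markers, was the highest. All 10 Fgf10 features were lower in Fgf10+/-, by log2 differences of -0.82 to -0.32, and on all 10 wild-type replicate 1 was the highest of the 8 samples. Without that library 4 of the 10 were lower, and the differences ran from -0.41 to 0.11. Levels this close to the median of all values do not check the genotype labels.

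No gene of the FGF pathway passed the threshold. Of 16 ligands, receptors and binding proteins 6 were positive, the median was -0.31, and none was free of overlap. That median was -0.10 without Fgf10+/- replicate 1, -0.18 without Fgf10+/- replicate 3 and -0.15 without wild-type replicate 1. Fgfr2, which encodes the FGF10 receptor, was at 6.43 ± 0.19 in wild type and 6.52 ± 0.27 in Fgf10+/- (SD, n = 4), a log2 difference of 0.08 (95% confidence interval -0.45 to 0.62), and its 10 further features lay between -0.34 and -0.03. Fgfr4 had the lowest value, -1.51, with wild-type replicate 1 at 8.91 and the other wild-type samples at 5.13 to 5.80, and without that library it was -0.65. Fgf7, a ligand for the same receptor isoform, had a difference of -0.92 with overlap.

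The 24 genes that respond to FGF signalling had a median of -0.11 with 9 positive. Etv5, an ETS factor of the pathway that is also needed to keep the AT2 state, was at 11.29, 11.22, 11.62 and 11.08 in wild type and at 10.88, 10.32, 10.97 and 10.96 in Fgf10+/-. It was the only gene of this list without overlap (2.04% of all genes on the lower side). Its log2 difference was -0.52 (SE 0.28, 95% confidence interval -1.11 to 0.07, limma adjusted p = 0.860), with a range of -0.59 to -0.37 when single libraries were left out. Spry1, a feedback inhibitor, had a difference of -0.52 with overlap, Spry2 -0.24, Dusp6, the ERK phosphatase, -0.27, and Etv4 -0.22 with 0.64 for a further feature. Lama5, a laminin chain of the epithelial basement membrane, had the smallest p of the list, with a difference of 0.41 (limma adjusted p = 0.820). These intervals do not show that the groups were alike, and a 1.5-fold lower level of Etv5 lay within its interval.

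AT2 identity genes were balanced, with 12 of 24 positive, a median of 0.00 and none past the threshold. Etv5 was the single member without overlap (2.04% of all genes on the lower side). Sftpb, surfactant protein B, was at 13.58 ± 0.27 and 13.83 ± 0.46 (SD, n = 4), a log2 difference of 0.25, while a further feature gave -0.53. Sftpc was at the top of the scale, so that a difference in it could not be measured. Abca3, the lamellar body lipid transporter, had a difference of -0.44, Lamp3 -0.39, Napsa -0.53, and Cebpa, a transcription factor of surfactant lipid genes, -0.74. The smallest p of the list was that of Chil1, a chitinase-like protein, at 10.37, 12.97, 12.83 and 12.01 in wild type and at 13.36, 12.18, 13.87 and 13.44 in Fgf10+/- (log2 difference 1.17, limma adjusted p = 0.807). It overlapped, and without wild-type replicate 1 the difference was 0.61.

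Markers of AT1 cells, the flat cells of gas exchange into which AT2 cells can differentiate, were all positive in difference, 15 of 15, with a median of 0.45. None passed the threshold, and 3 had an unadjusted p under 0.05 with a positive difference (2.63% of all genes). Only Rtkn2 (0.39) was without overlap (1.42% of all genes on the higher side). Vegfa, the vascular growth factor made by AT1 cells, was at 10.20, 10.53, 11.32 and 9.94 in wild type and at 11.90, 10.94, 11.74 and 11.37 in Fgf10+/- (log2 difference 0.99, limma adjusted p = 0.644), and 2 further features gave 0.31 and 0.30. Pdpn, podoplanin, had a difference of 0.83, and Ager, the AT1 receptor for glycation products, 0.25. Wild-type replicate 3 overlapped the Fgf10+/- range in Vegfa and Pdpn. The list mean was 9.24 to 10.40 in wild type and 9.72 to 10.70 in Fgf10+/-. Genes of the transitional injured epithelium had a median of 0.06, with 9 of 15 positive, and it ran from -0.26 without wild-type replicate 1 to 0.25 without wild-type replicate 3.

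Cell cycle genes had small positive medians. For mitosis the median was 0.37 with 21 of 25 positive, and for DNA replication 0.28 with 25 of 29 positive, and none of these genes passed the threshold or was free of overlap. Mki67, a marker of cycling cells, was at 10.16, 9.09, 9.25 and 10.11 in wild type and at 10.64, 10.57, 9.20 and 9.96 in Fgf10+/- (log2 difference 0.44, limma adjusted p = 0.964). The DNA replication mean was highest in wild-type replicate 4 (8.39) and Fgf10+/- replicate 2 (8.43), the same libraries that had the highest thymocyte means, and lowest in replicate 3 of both groups (6.91 and 7.0). Its median was 0.07 without Fgf10+/- replicate 2, 0.13 without wild-type replicate 2 or 3, 0.58 without Fgf10+/- replicate 3 and 0.59 without wild-type replicate 4. The mitosis median ran from 0.11 without wild-type replicate 3 to 0.59 without wild-type replicate 4. Of the 10 thymocyte markers 9 were positive, their median was 0.36, and 9 had a mean under 6. With the thymocyte mean as a covariate the medians were 0.09 for mitosis and 0.03 for DNA replication. The part of thymocytes in the cell cycle difference was not tested.

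The metabolic and stress lists were near 0. Medians were -0.04 for 27 NRF2 targets, -0.04 for 22 unfolded protein and integrated stress response genes, -0.02 for 23 oxidative phosphorylation genes, 0.08 for 25 hypoxia-inducible factor targets and glycolysis genes, 0.11 for 17 cholesterol synthesis genes and -0.18 for 26 fatty acid and phospholipid synthesis genes. No member of these lists passed the threshold. Inflammatory cytokines and chemokines had a median of 0.09 with 15 of 28 positive. Il6, an inducer of acute phase genes, was at 7.76, 8.33, 7.90 and 7.71 in wild type and at 7.02, 6.61, 7.55 and 7.33 in Fgf10+/-, lower without overlap (log2 difference -0.80, limma adjusted p = 0.659). Immediate early and dissociation genes had a median of -0.22 (-0.39 without wild-type replicate 4), with 5 of 21 positive, and TGF-beta and BMP genes one of -0.06, among which Smad7, an inhibitor of TGF-beta receptors, was at 6.91 ± 0.34 and 6.14 ± 0.08 (SD, n = 4) without overlap (log2 difference -0.77, limma adjusted p = 0.546).

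The genotype difference in normoxia was set beside that in hyperoxia, where 2 Fgf10+/- samples faced 6 wild-type samples. In hyperoxia no gene passed the limma threshold, and 906 genes (4.37%) had an unadjusted p under 0.05. Oasl2 was at 6.89 ± 0.27 in wild-type hyperoxia (SD, n = 6) and at 6.59 and 6.80 in the Fgf10+/- samples, a log2 difference of -0.19. Lrg1 was at 6.54 ± 0.37 against 7.47 and 6.15 (log2 difference 0.27). The difference between these differences was 1.78 for Oasl2 (limma adjusted p = 0.551) and 2.32 for Lrg1 (limma adjusted p = 0.988), so neither was shown to differ between oxygen conditions.

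List medians in hyperoxia were -0.18 for interferon response, -0.30 for acute phase and -0.33 for antigen presentation genes. They were 0.61 for AT1, -0.32 for AT2 identity and -0.67 for macrophage genes. Of the 8 higher genes plotted above, 3 had the same sign in hyperoxia, with differences of -0.56 to 0.48. Of the 8 lower genes 7 had it, with differences of -2.04 to 0.24, among them Ear2 (-1.87) and Ccl6 (-2.04). Over all genes the 2 signs were opposite for 47% of genes. Endothelial and mast cell and basophil medians were 0.00 and -0.31. These are values side by side, since differences between the lists were not tested.

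Of the 20725 genes, 2 (0.00965%) passed the threshold for the interaction of genotype and oxygen, and 852 (4.11%) had an unadjusted p under 0.05. C1rb, a complement C1r subcomponent gene, was at 5.47, 5.39, 4.82 and 5.26 in wild-type normoxia and at 5.73, 6.03, 6.02 and 6.69 in Fgf10+/- normoxia, a log2 difference of 0.88. In hyperoxia it was at 5.66 ± 0.15 in wild type (SD, n = 6) and at 4.33 and 4.36 in Fgf10+/-, a difference of -1.32. The interaction was 2.20 (SE 0.33, limma adjusted p = 0.0471). Psd2, which had values of 2.80 to 4.18 in normoxia and so lay below the median of all values, had an interaction of 2.22 (SE 0.33, limma adjusted p = 0.0471). Il18bp, which neutralises interleukin 18, had the same pattern of signs, with a difference of 1.30 in normoxia and an interaction of 2.14 (limma adjusted p = 0.551).

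**Figure D4:**
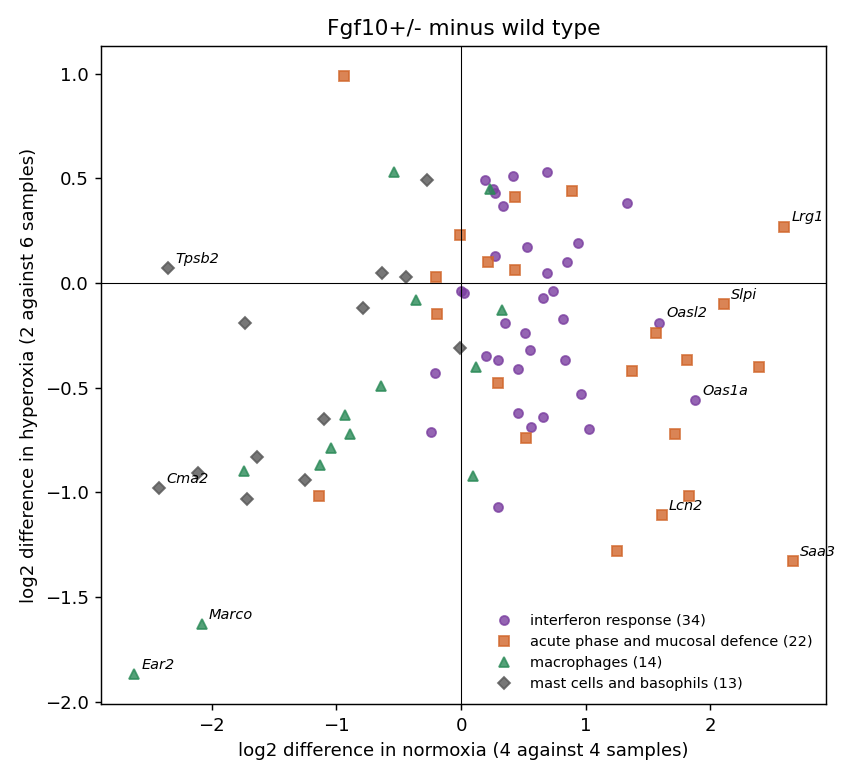
Log2 difference, Fgf10+/- minus wild type, in hyperoxia (vertical axis, 2 against 6 samples) against normoxia (horizontal axis, 4 against 4 samples) for members of 4 gene lists, each point a gene. Macrophage genes such as Ear2 and Marco lie below 0 on both axes, whereas Lrg1 (0.27), Slpi (-0.10) and Oasl2 (-0.19), to the right of 0 in normoxia, lie close to 0 in hyperoxia.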

How the data were processed

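RNA of AT2 samples was labelled with Cy3 and hybridised to single-colour Agilent arrays, per the labels' protocols. The deposited values are log2 intensities that the authors had normalized between arrays, as inferred from their range (-0.40 to 15.98) and near-identical distributions. The sources used here name neither the software nor the log base. No detection flags, slides or scan labels came with them, so background could be judged only from low values and no slide batch could be tested. Precision is limited by how many arrays there were.

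Of 62976 features, 65 lacked a value on some array and were dropped, 31465 had 1 gene symbol and 31511 had no listed gene (0 had several). Symbols were updated through RefSeq tables of GRCm38.p6 (29050 features by accession, 2061 by symbol, 349 by synonym, 5 kept). Each of 20725 genes was represented by its brightest feature (mean of the 16 samples), and 6165 genes had several.

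Group means were fitted over all 16 samples with limma 3.58.1 in R 4.3.3 (lmFit, eBayes). Groups followed the titles (4, 4, 6 and 2), while the series text gives 4 per group. P-values were adjusted by the Benjamini-Hochberg method over all genes, with a threshold of 0.05. In simulated data for this comparison (20725 genes, 200 changed, 5 runs) the fit recovered 26% of 2-fold and 90.2% of 4-fold changes, and 3.77% of calls were false. More changed genes make the adjusted threshold easier to pass, and the data gave 2 calls, so these shares need not hold for them. No label says whether equal replicate numbers mark paired samples, so the main fit did not use them.

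The members and gene lists were chosen with earlier results of these data known, and 6 lists were added after the values were seen. Of 709 members of 39 lists 687 were measured. Named genes were the 8 smallest p-values per direction without overlap and at least 1.5-fold, leaving out predicted and clone names, then up to 3 called members per list or else the smallest p and the highest mean, then Fgf10, Fgfr2, Sftpc, Sftpb, Spry2, Etv5, Cdkn1a, Mki67 and Ager, and the 5 smallest interaction p-values. Other members were named after their values were seen. Alternatives were the scaling, a filter on dim genes, the mean of features, normoxia samples alone, a replicate block, another eBayes setting, marker covariates and leaving out libraries.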

Additional observations from a re-analysis of the deposited data

Results flagged for a closer look

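Values of 15 samples and genes stood further from the other 3 samples of their group than Dixon's 95% limit allows, 10 among 188 groups of named genes and 5 among 78 groups of list means. Chance alone does so in about 1 in 20 groups. In wild type these were Oasl2 at 7.26 in replicate 3, Csf3r at 12.95 in replicate 3, Spry2 at 4.64 in replicate 4, and Tagln at 12.78, Klrb1c at 6.33 and Fgf10 at 5.89 in replicate 1. In Fgf10+/- they were Timp1 at 10.83 in replicate 4, and Foxj1 at 8.11, Etv5 at 10.32 and Sftpc at 15.97 in replicate 2, the last being a gap at the top of the scale.

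The list means were cholesterol synthesis in Fgf10+/- replicate 3 (7.94), basal cell markers in Fgf10+/- replicate 4 (7.25), acute phase genes in wild-type replicate 1 (7.25), and imprinted growth genes (7.33) and thymocyte markers (6.43) in wild-type replicate 4. The genotype difference of C1rb and that of Psd2 differed between normoxia and hyperoxia by the limma interaction term, by 2.20 and 2.22 on the log2 scale, and both rest on 2 Fgf10+/- hyperoxia samples.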

How the results depend on the processing

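The 2 calls, Oasl2 and Lrg1, stood under median centring (2 calls), quantile normalization (2) and the mean of all features (2), and also among 7 calls when genes with a mean under 6 were left out, where 8299 genes were tested, 8 with eBayes trend and robust settings and 3 with the thymocyte mean as a covariate. There were 0 calls with normoxia samples only (adjusted p = 0.382 for both). Leaving out single libraries gave 0 to 9. Correlations of same-numbered deviations were 0.06, -0.16, 0.24 and 0.03, too few values to decide whether equal replicate numbers mark paired samples. The replicate block gave 0 calls over all 16 samples and 0 over normoxia samples only. Over all 16 samples the limma adjusted p was 0.0766 for Oasl2 and 0.0994 for Lrg1. Among alternatives chosen after seeing the data, leaving out the 4 libraries highest in thymocyte markers gave 10 calls, 0 of them shared with the 2 reported, the macrophage, mast cell and endothelial covariates gave 0 each, and all 62911 features gave 0. The 2 interaction calls remained 2 under both scalings and the mean of features, and were 0 without dim genes, a filter that left out C1rb and Psd2 themselves, with the replicate block, with trend and robust settings and with the thymocyte covariate, and 0 to 1 without single libraries. The cause was not tested.

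Of the named genes' values under alternatives, 2248 kept direction and side, 17 gained and 27 lost the threshold, and 60 changed sign, all in genes not past the threshold. Under centring these were Elovl1 0.03, Atp5b 0.03, Scgb1a1 0.02 and Hdc 0.03. Under quantile normalization they were Gprc5a -0.01 and Krt18 -0.05. With the mean of features they were Scgb1a1 0.01, Trp63 -0.08, Csf1r -0.18, Fgfr2 -0.14, Sftpb -0.14 and Acly 0.06, and with the thymocyte covariate Mcm6 -0.15, Hmgcs1 0.01, Elovl1 0.12, Tef 0.07, Tcf7 -0.09 and Hdc 0.15. Without single libraries the ranges were Gprc5a -0.34 to 0.30, Krt18 -0.26 to 0.24, Fgf1 -0.14 to 0.24, Ftl1 -0.07 to 0.22, Mcm6 -0.16 to 0.53, Hmgcs1 -0.15 to 0.01, Elovl1 -0.18 to 0.12, Atp5b -0.11 to 0.05, Tef -0.15 to 0.13, Ctnnb1 -0.05 to 0.19, Col1a2 -0.16 to 0.87, Vpreb3 -0.31 to 0.32, Hba-a1 -0.06 to 0.83, Hdc -0.16 to 0.23, Wfdc2 -0.20 to 0.33, Fgf10 -0.48 to 0.06, Fgfr2 -0.02 to 0.20 and Ager -0.03 to 0.44. Of the list medians 711 moved by less than the replicate spread and 9 by more, among them acute phase (1.61), macrophage (-1.44), neutrophil (-1.14) and OAS genes (1.59) without dim genes. Of the 20725 genes 12426 had a mean under 6, where a difference is least certain.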

Other observations

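Among features without a listed gene, of 31472 tested with limma, 0 had a Benjamini-Hochberg adjusted p under 0.05 over them alone, and 1742 (5.54%) had an unadjusted p under 0.05. Imprinted growth genes, which are high in the newborn lung, had a median difference of 0.09 over 15 members, and -0.12 without wild-type replicate 4. Mest, a mesoderm-specific hydrolase, was at 9.85, 9.20, 8.48 and 8.43 in wild type and at 8.30, 8.40, 7.87 and 7.92 in Fgf10+/-, a log2 difference of -0.87 without overlap (limma adjusted p = 0.814). H19, a growth-restraining noncoding RNA, had a difference of 0.53.

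Basal cell markers had a median of 0.55 over 6 genes (0.88 without wild-type replicate 3). Krt14, a keratin of basal airway cells, was at 5.11, 4.55, 5.33 and 4.89 in wild type and at 5.63, 5.97, 5.70 and 6.72 in Fgf10+/- (log2 difference 1.03, limma adjusted p = 0.519), without overlap. All 7 mesothelial markers were positive in difference, with a median of 0.39 (0.62 without Fgf10+/- replicate 1 and 0.23 without replicate 4) and Lrrn4 at 0.99. Neutrophil genes had a median of -0.31, which was -0.20 without Fgf10+/- replicate 1, -0.15 without wild-type replicate 2, -0.48 without wild-type replicate 3 and -1.14 without genes of a mean under 6. Among them Retnlg, a resistin-like secreted protein of neutrophils, was at 5.84 to 7.51 in wild type and at 5.31 to 5.48 in Fgf10+/-, a log2 difference of -1.39 without overlap (limma adjusted p = 0.464).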
